A study of Arabidopsis thaliana with 18 samples.

Results

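The windows described here are stretches of 100 bp in which DNA methylation was low in the wild type and higher in at least 1 epigenetic recombinant inbred line (epiRIL) of Arabidopsis thaliana. A window was taken when its methylation level, a fraction from 0 to 1 over all cytosines, was under 0.1 in Col-wt with at least 10 cytosines, and when at least 1 epiRIL stood 0.1 or more above Col-wt with at least 10 cytosines of its own. Of 43887 windows, placed every 50 bp, 39236 had a level in all 9 lines, 31332 of these met the conditions on Col-wt, and 411 were gained (1.31% of 31332). The levels of Col-wt and of the epiRILs picked the windows, so the windows were chosen by those levels and the differences between them are given as a description, without a test. Windows that met the conditions on Col-wt are called eligible. The levels of the epiHybrids were not used to pick them.

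The lines were epiRILs 92, 150, 193 and 232, an epiHybrid named after each of them, and Col-wt, each with 2 bisulfite sequencing libraries from aerial rosette tissue harvested 21 to 22 days after sowing. EpiRILs are inbred lines that share nearly 1 DNA sequence and differ in inherited stretches of chromosome that had lost methylation in a founder. From published work on these lines, and not from the labels, the founder carried a mutation in DDM1, which encodes a chromatin remodeller, and each epiHybrid is the first-generation cross of its epiRIL with Col-wt. The libraries of a line were combined by the authors into 1 value, and whether they came from separate plants is not given, so no level has a replicate error; SDs below are over windows or over lines.

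In plants, cytosines are methylated in the contexts CG, CHG and CHH, where H is any base but G. Methylation over transposons and repeats involves all of these contexts, is copied when DNA replicates, and is added anew by a pathway guided by small RNAs; methylation inside expressed genes is usually limited to CG. The deposited level joins the contexts, so a gain cannot be assigned to one of them here.

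Each epiRIL gained fewer windows than it lost. EpiRIL 92 gained 133 windows (0.426% of the eligible windows in which it had at least 10 cytosines), epiRIL 150 gained 115 (0.373%), epiRIL 193 gained 107 (0.349%) and epiRIL 232 gained 194 (0.623%). The mirrored condition, with the epiRIL under 0.1 and Col-wt at least 0.1 above it, was met by 237, 1110, 1185 and 1568 windows in epiRILs 92, 150, 193 and 232, which was 0.758, 3.47, 3.72 and 4.81% of the windows under 0.1 in that epiRIL. Over the windows each epiRIL gained, the mean level was 0.181 ± 0.0647 in epiRIL 92, against 0.0348 ± 0.0329 in Col-wt (SD over 133 windows). It was 0.166 ± 0.0593 in epiRIL 150, against 0.0246 ± 0.0305 in Col-wt, and 0.166 ± 0.0589 in epiRIL 193, against 0.0226 ± 0.0286 in Col-wt. In epiRIL 232 it was 0.190 ± 0.0727, against 0.0268 ± 0.0311 in Col-wt. The gains were mostly small: 66 of the 411 windows reached a difference of 0.2, and the median of the largest gain per window was 0.131. Near the limit, 78 windows lay less than 0.01 inside it and 114 less than 0.01 outside it, the nearest outside at 0.0999.

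Most windows were gained in a single line. Of the 411, 320 were gained in 1 epiRIL, 57 in 2, 21 in 3 and 13 in all 4. Of those gained in 1 line, epiRIL 232 held 123, epiRIL 150 held 75, epiRIL 92 held 67 and epiRIL 193 held 55. Of pairs of lines, epiRILs 92 and 232 shared the most windows, 46, which was 34.6% of those of epiRIL 92 and 23.7% of those of epiRIL 232. EpiRILs 150 and 193 shared the fewest, 19, or 16.5% of those of epiRIL 150 and 17.8% of those of epiRIL 193. The other pairs shared 28 to 37 windows. EpiRILs 92 and 232 also gained the most windows in all, and epiRILs 150 and 193 the fewest. All of these shared parts were far above the shares gained over eligible windows, 0.426, 0.373, 0.349 and 0.623% in epiRILs 92, 150, 193 and 232. All 4 epiRILs were set against the same Col-wt column, and a low reading in that column enters every line's gains at once.

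**Figure D1:**
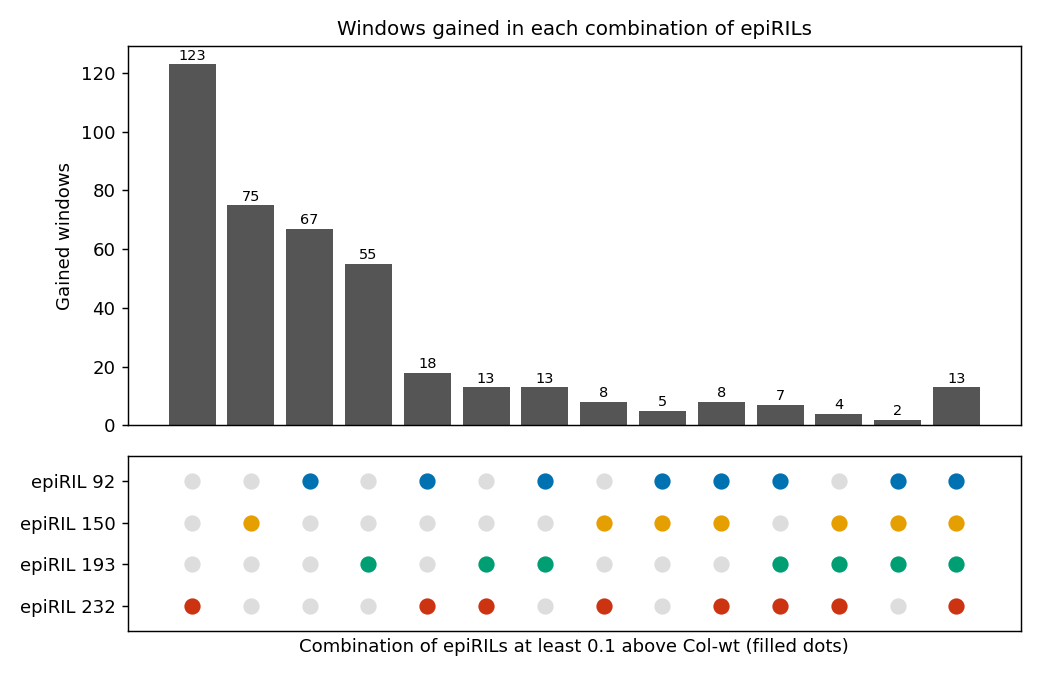
Number of gained windows (bars, vertical axis) for each combination of epiRILs that stood at least 0.1 above Col-wt (filled dots below each bar). The 4 bars for a single epiRIL hold 320 of the 411 windows, with the tallest, 123, in epiRIL 232, and 13 windows were gained in all 4.

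Where more epiRILs had gained, Col-wt was more often the lowest line. This follows in part from the rule, since every epiRIL that gains must lie above Col-wt. Col-wt was the lowest of the 9 lines, or tied for it, in 31.2% of the windows gained in 1 epiRIL, 52.6% of those gained in 2, 71.4% of those gained in 3 and 12 of the 13 gained in 4, against 21.7% of all 31332 eligible windows. In windows gained in 3 epiRILs, the gaining epiRILs averaged 0.229, the epiRIL that had not gained 0.0863, its epiHybrid 0.112 and Col-wt 0.0461. In windows gained in 1 epiRIL, the gaining epiRIL averaged 0.163, the other epiRILs 0.0328, their epiHybrids 0.0322 and Col-wt 0.0212. The median number of cytosines in Col-wt was 33 in windows gained in 1 epiRIL, 34 in those gained in 2, 27 in those gained in 3 and 37 in those gained in 4. In the weakly methylated windows of the table (mean level under 0.02), in contrast, Col-wt read 0.00796, above the other 8 lines at 0.00465 to 0.00568. The part that the Col-wt reading has in shared gains was not tested.

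Gained windows no more than 100 bp apart, over all lines together, formed 211 regions, and 121 of them held a single window. The longest spanned 1250 bp. By the number of epiRILs with a gained window in them, 159 regions belonged to 1 epiRIL, 27 to 2, 16 to 3 and 9 to 4. Gained windows were found in all 3 intervals that the table covers, on chromosome 3 at 8937051 to 9698100 (156 gained windows, 1.59% of those eligible there) and at 22235451 to 23207500 (136, 0.924%), and on chromosome 4 at 11363351 to 11824750 (119, 1.75%), in TAIR10 coordinates. The chromosome 4 interval differed between lines: epiRIL 232 gained 78 windows there (1.16%), and epiRILs 92, 150 and 193 gained 32, 24 and 11 (0.473, 0.359 and 0.165%). Of the 78 windows of epiRIL 232, 33 lay over a single gene, AT4G22410, and many of them overlap, so this share rests in large part on that gene.

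The longest gained region lay over AT4G22410, a protein-coding gene at the end of the chromosome 4 interval. Of its 35 eligible windows, 33 were gained in epiRIL 232, in the region at 11818901 to 11820150 and in a second one at 11818101 to 11818700. In the first, of 24 windows, epiRIL 232 averaged 0.238 ± 0.0519, its epiHybrid 0.124 ± 0.0484 and Col-wt 0.0159 ± 0.0227 (SD over windows). EpiRIL 92 averaged 0.0850 there and had gained 5 of the windows, with 0.0376 in its epiHybrid. EpiRILs 150 and 193 read 0.0181 and 0.00617, and their epiHybrids 0.0128 and 0.0190, all within 0.01 of Col-wt. The region adjoins a stretch that is methylated in Col-wt: over the next 20 windows, at 11820101 to 11821150, epiRIL 232 read 0.337, epiHybrid 232 0.318 and Col-wt 0.269, and epiRIL 193 read 0.0486. In that stretch epiRIL 92 read 0.198 and epiRIL 150 0.313. Over the gained region beside it, these lines read 0.0850 and 0.0181, and epiRIL 193 read 0.00617. The part of the stretch in the gain was not tested.

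Along the gene, epiHybrid 232 varied more than epiRIL 232. Where a hybrid lies between its parents is given as a position: its excess above Col-wt, summed over windows, divided by the summed excess of its epiRIL. A hybrid with the level of Col-wt has position 0, and one with the level of the epiRIL has position 1. Over the 12 gained windows nearest the Col-wt methylated stretch, epiRIL 232 read 0.233, its epiHybrid 0.129 and Col-wt 0.0271, a position of 0.496. Over the 12 farther ones they read 0.243, 0.118 and 0.00467, a position of 0.475. Over the 9 windows of the second region, farthest from the stretch, epiRIL 232 still read 0.195, but epiHybrid 232 read 0.0148 and Col-wt 0.0183, a position of -0.02. The levels of epiHybrid 232 in those 9 windows ran from 0.00339 to 0.0387 and those of epiRIL 232 from 0.120 to 0.308, so they did not overlap. The highest epiHybrid in the second region was that of line 193, at 0.0650, from a median of 18 cytosines per window, whereas epiRIL 193 read 0.0286.

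**Figure D2:**
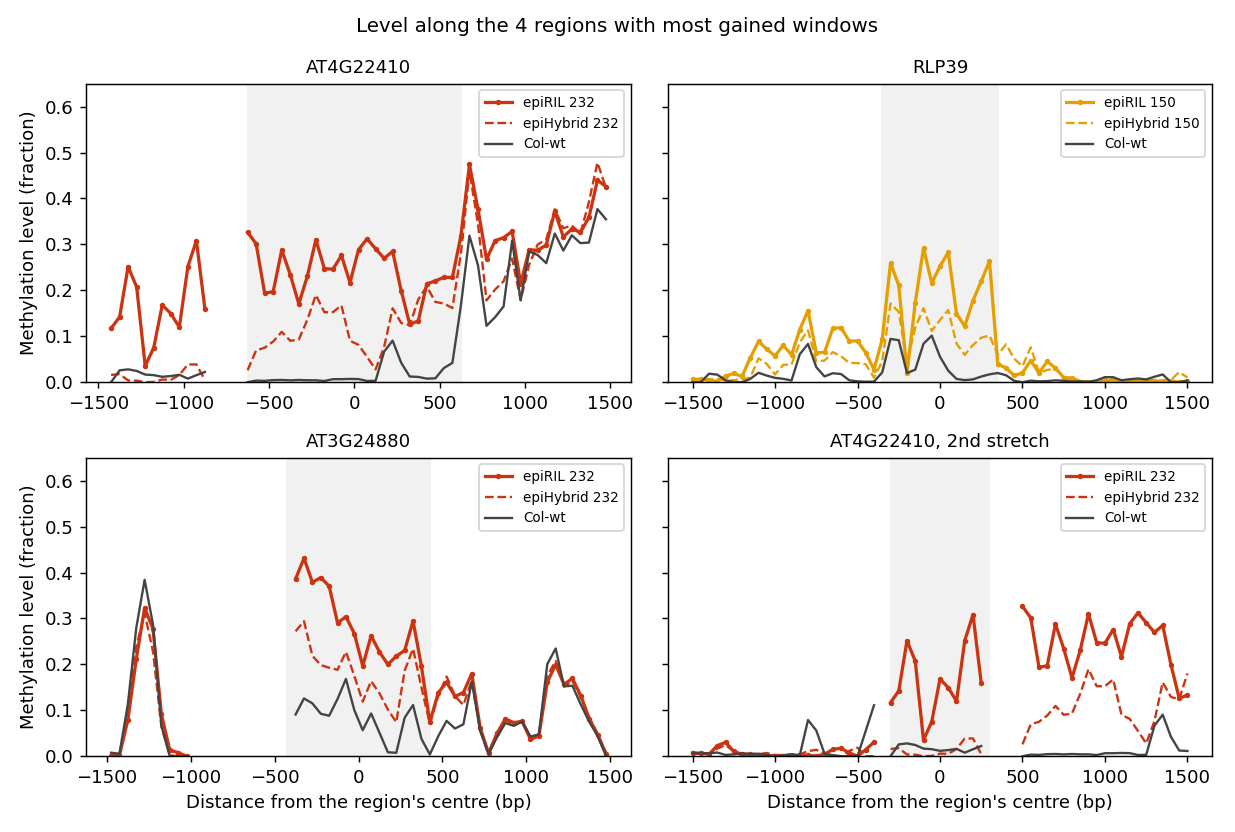
Methylation level (fraction, vertical axis) in windows along the 4 regions with the most gained windows, by distance from the region's centre in bp, in the epiRIL with the most gained windows (solid), its epiHybrid (dashed) and Col-wt (grey); shading marks the region and lines break where windows had no level in all 9 lines. Over AT4G22410 the region gained in epiRIL 232 lies next to a stretch methylated in Col-wt, and its epiHybrid stands midway in the first region (0.124) but at the Col-wt level in the second (0.0148).

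RLP39, which encodes a receptor-like protein, a membrane protein family with members in pathogen recognition, held the region with the most windows gained in epiRIL 150. In its 11 windows, at 9100101 to 9100800 on chromosome 3, epiRIL 150 read 0.218 ± 0.0569, epiHybrid 150 0.120 ± 0.0379 and Col-wt 0.0386 ± 0.0359 (SD over windows). EpiRILs 92, 193 and 232 read 0.0249, 0.0179 and 0.00317, and their epiHybrids 0.0198, 0.0168 and 0.0108. By these means, line 150 alone stood above Col-wt, in both its epiRIL and its epiHybrid, and the other 6 lines stood below it. Single windows could differ: at 9100101 and 9100151, epiRIL 92 read 0.143 and 0.116, against 0.0943 and 0.0913 in Col-wt. Unlike the region over AT4G22410, this one lay 6300 bp from the nearest window with a level of 0.2 or more in Col-wt.

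AT3G24880, a protein-coding gene, held another long region, at 9086501 to 9087350 on chromosome 3, with 10 windows gained in epiRIL 232 only. There epiRIL 232 read 0.267 ± 0.0815, epiHybrid 232 0.159 and Col-wt 0.0610 ± 0.0341 (SD over windows). The other epiRILs read 0.0601 to 0.0716 and the other epiHybrids 0.0603 to 0.0708, a range that takes in Col-wt. The position of the epiHybrid was 0.477, close to those of the first AT4G22410 region (0.485) and the RLP39 region (0.452).

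**Figure D3:**
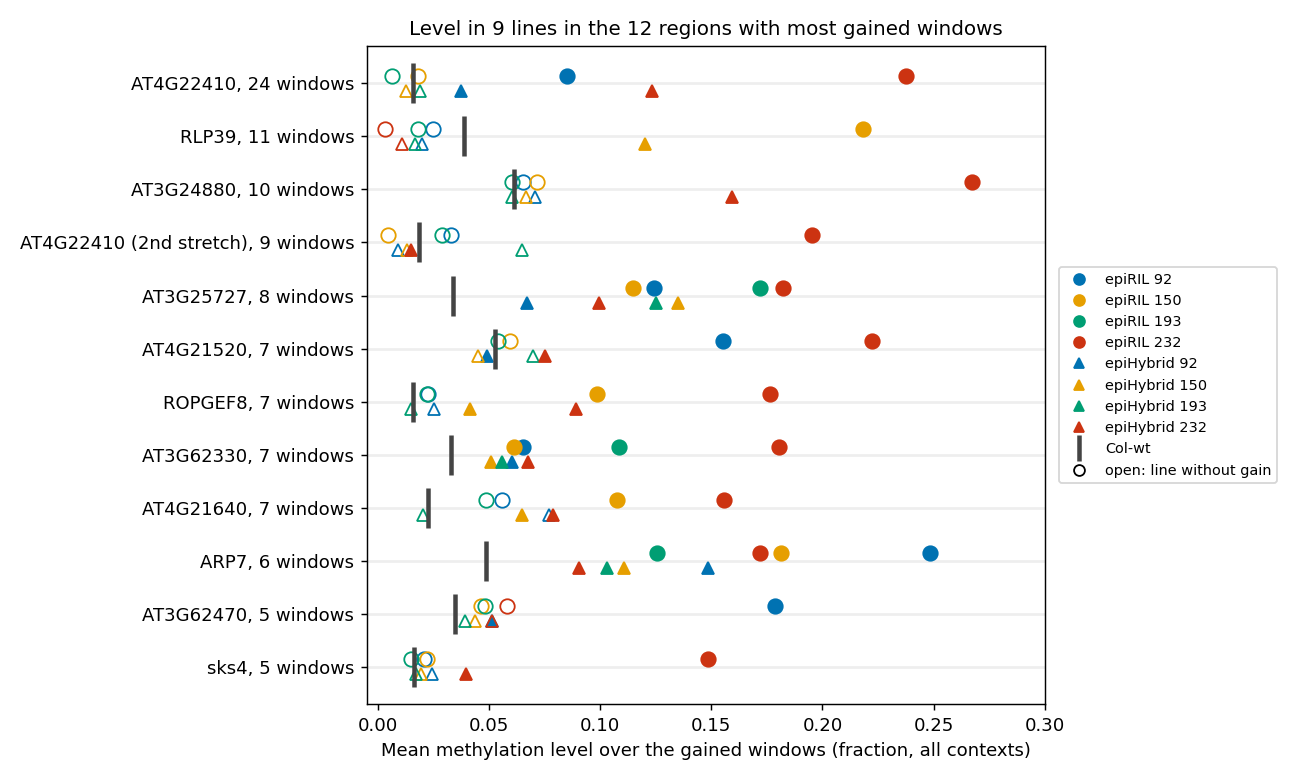
Mean methylation level (fraction, horizontal axis) in all 9 lines for the 12 regions with the most gained windows, named by the overlapping or nearest gene; circles are epiRILs, triangles epiHybrids, bars Col-wt, and open symbols are lines without a gained window in the region. The highest epiHybrid is that of the epiRIL with the most gained windows, except in the second AT4G22410 region and over AT3G25727. Near ARP7, epiRILs 92, 150 and 232 had equally many gained windows. Over AT3G62470, epiHybrids 92 and 232 read alike, at 0.0512. The epiHybrid of the epiRIL with the most gained windows has a position under 0.25 over AT4G21520, AT3G62470, sks4, AT3G62330 and the second AT4G22410 region.

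In other regions gained in 1 line, the epiHybrid stood nearer to Col-wt. AT3G62470, a protein-coding gene, had 5 windows gained in epiRIL 92 at 23106501 to 23106900 on chromosome 3, where epiRIL 92 read 0.179, its epiHybrid 0.0512 and Col-wt 0.0345. EpiHybrid 232 had the same level as epiHybrid 92, 0.0512. Over sks4, a member of the SKU5-similar family, 5 windows at 11665351 to 11665750 on chromosome 4 read 0.149 in epiRIL 232, 0.0394 in its epiHybrid and 0.0162 in Col-wt, with 0.0150 to 0.0218 in the other epiRILs and 0.0169 to 0.0244 in the other epiHybrids. Within 1000 bp of RTFL16, which encodes a small peptide of the ROTUNDIFOLIA-like family, 4 windows at 9376401 to 9376650 on chromosome 3 read 0.131 in epiRIL 150, 0.00371 in its epiHybrid and 0 in Col-wt. Here the hybrid of the gaining line could not be told from the other epiHybrids, at 0 to 0.00362.

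Several regions were gained in epiRIL 232 and in a second line, which had fewer gained windows except over AT3G25850. Over ROPGEF8, which encodes an activator of ROP GTPases, levels in 7 windows (8981201 to 8981700 on chromosome 3) were 0.176 in epiRIL 232 and 0.0986 in epiRIL 150, 0.0889 and 0.0416 in their epiHybrids, and 0.0158 in Col-wt. Both lines outranked epiRILs 92 and 193, at 0.0224 and 0.0221. Over AT4G21640, levels in 7 windows (11496951 to 11497750 on chromosome 4) were 0.156 in epiRIL 232 and 0.108 in epiRIL 150, with 0.0790 and 0.0648 in their epiHybrids and 0.0227 in Col-wt. EpiHybrid 92, whose epiRIL had no gained window there, read 0.0769. This region lay next to a window methylated in Col-wt. Over AT4G21520, next to a window methylated in Col-wt, levels in 7 windows (11447851 to 11448300 on chromosome 4) were 0.222 in epiRIL 232 and 0.155 in epiRIL 92, but 0.0751 and 0.0492 in their epiHybrids and 0.0527 in Col-wt. Over AT3G25850, the 4 windows at 9458501 to 9458850 on chromosome 3 were gained in 2 lines, with 0.162 in epiRIL 193 and 0.157 in epiRIL 232, and their epiHybrids parted, at 0.0513 in line 193 and 0.0955 in line 232, against 0.0316 in Col-wt.

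NGA2, a NGATHA transcription factor gene with a part in leaf and flower development, was gained in 3 lines and not in epiRIL 92. Its 3 windows at 22953101 to 22953300 on chromosome 3 read 0.286 in epiRIL 193, 0.245 in epiRIL 232 and 0.158 in epiRIL 150, but 0.00475 in epiRIL 92. Of their epiHybrids, 193 read 0.0763, 232 read 0.0139, 150 read 0.0637 and 92 read 0.00172, and Col-wt read 0.00715. EpiRILs 193 and 232 thus had like levels, while epiHybrid 232 stayed near Col-wt, a position of 0.0283 against 0.248 in line 193. The medians behind epiRIL 193 and epiHybrid 193 were 13 and 14 cytosines per window, against 30 in Col-wt.

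Where 4 lines had gained, Col-wt mostly stood under the epiHybrids as well. In the region over AT3G25727, with 8 windows at 9393701 to 9394200 on chromosome 3, epiRILs 92, 150, 193 and 232 read 0.124, 0.115, 0.172 and 0.182, epiHybrids 92, 150, 193 and 232 read 0.0670, 0.135, 0.125 and 0.0993, and Col-wt read 0.0336. Near ARP7, an actin-related protein gene, levels in 6 windows (22476601 to 22476950 on chromosome 3) were 0.248, 0.181, 0.126 and 0.172 in the epiRILs in the same order, 0.148, 0.111, 0.103 and 0.0904 in the epiHybrids, and 0.0485 in Col-wt. All 8 other lines were above Col-wt in both regions. Near CDC45, a DNA replication gene, the 3 windows at 9142801 to 9143150 read 0.153 to 0.187 in the epiRILs and 0.132 to 0.212 in the epiHybrids, against 0.0509 in Col-wt. Near AT4G21580, the 4 windows at 11475001 to 11475250 on chromosome 4 were gained in 3 lines. The epiHybrids read 0.215 to 0.281 and epiRIL 193, without a called gain, 0.105, against 0.0644 in Col-wt. These levels rested on a median of 19 cytosines in Col-wt and 11 in epiRIL 193. In the window at 11475001, epiRIL 193 read 0.1875 against 0.0783 in Col-wt, a difference past the limit. Its 8 cytosines there were too few for the rule. In the window at 11475051, epiRIL 193 read 0.0682 against 0.0723 in Col-wt, also from 8 cytosines. In each of these 4 regions the levels of the epiHybrids overlapped those of the gaining epiRILs.

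Of the remaining named regions gained in 3 or 4 epiRILs, 13 held 2 windows, 1 held 3, over ERD2B, which encodes a receptor that returns proteins to the endoplasmic reticulum, and 1 held 7, over AT3G62330. Over ERD2B, at 9125901 to 9126200 on chromosome 3, the epiRILs read 0.122 to 0.157, the epiHybrids 0.0810 to 0.0933 and Col-wt 0.0432. Over AT3G62330, at 23063251 to 23064150 on chromosome 3, epiRIL 232 read 0.181 and the other epiRILs 0.0614 to 0.109, while the epiHybrids lay together at 0.0510 to 0.0675, against 0.0328 in Col-wt. AT3G61240 was gained in all 4 lines in both of its windows, at 22668851 to 22669000, with 0.133 to 0.145 in the epiRILs, 0.0634 to 0.0898 in the epiHybrids and 0.00588 in Col-wt, and medians of 41 or 42 cytosines in every line. RALFL26, which encodes a peptide of the rapid alkalinization factor family, was also gained in all 4 lines in 2 windows, at 9166651 to 9166800, with 0.136 to 0.198 in the epiRILs and 0 in Col-wt. There the epiHybrids ranged from 0 in line 92 to 0.124 in line 193, and Col-wt had a median of 12 cytosines. The 11 other regions of 2 windows lay over or within 1000 bp of AT3G24612, AT3G25190, AT4G22120, AT3G62520, scpl21, MAP1B, AT3G61260, ABCC14, AT3G60810 and AT3G61420, with 1 more than 1000 bp from any gene. Their Col-wt levels were 0.00108 to 0.0964.

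By size of the difference in a single window, epiRIL 150 differed most from Col-wt near AT4G21580 (by 0.282) and epiRIL 193 near AT3G24612 (by 0.347), in regions named above. In epiRIL 92 the largest difference was at 22747951 to 22748050 on chromosome 3 near LHCA2, a light-harvesting protein gene of photosystem I, with 0.522 in epiRIL 92, 0.235 in its epiHybrid and 0.0477 in Col-wt from 10 cytosines in each of these. EpiRILs 193 and 232 read 0.306 and 0.205 in the same window. A separate window near LHCA2, at 22747501, read 0.316 in epiRIL 92, 0.324 in epiHybrid 92 and 0 in Col-wt, from 24 or 25 cytosines. In epiRIL 232 the largest was at 9256451 to 9256550 on chromosome 3, with no gene within 1000 bp, at 0.567, with 0.185 in its epiHybrid and 0.0909 in Col-wt, which had 11 cytosines. Other lines were high there too, with 0.325 in epiRIL 150, 0.305 in epiRIL 193 and 0.407 in epiHybrid 150. These windows were chosen after their values were seen.

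On average the matching epiHybrids had levels between those of their epiRIL and Col-wt. Over the windows gained in its epiRIL, epiHybrid 92 averaged 0.0963, epiHybrid 150 0.0721, epiHybrid 193 0.0758 and epiHybrid 232 0.0867. The positions were 0.422, 0.337, 0.371 and 0.367, a mean of 0.374 ± 0.0351 (SD, n = 4 lines), where 0.5 is midway. With a gain of at least 0.2 the position was 0.613 in line 150, past midway, and 0.239 in line 193. These rest on 12 windows in line 150 and 10 in line 193, some of which overlap. Over the same windows as above, the other 3 epiHybrids averaged 0.0794 for the windows of line 92, 0.0566 for those of line 150, 0.0603 for line 193 and 0.0563 for line 232. Put on the same scale, they stood at 0.306, 0.227, 0.263 and 0.181, so epiHybrids of other lines also stood above Col-wt in these windows. Positions use the levels that picked the windows and have no test. The windows within each line were far apart: in line 92, 45 of 133 had a position under 0.25, 71 from 0.25 to 0.75 and 17 at 0.75 or more. These counts were 55, 48 and 12 of 115 in line 150 and 47, 47 and 13 of 107 in line 193. Line 232 had 82, 96 and 16 of 194. The position was 0.4 in regions of 1 window, 0.328 in regions of 2, 0.372 in regions of 3 to 5 and 0.402 in regions of 6 or more, so it showed no order by length.

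Few gained windows met the same limit in the epiHybrid, and the limit itself makes low counts likely. A hybrid midway between Col-wt and its epiRIL meets it only where the epiRIL gained at least 0.2. That was so in 17, 12, 10 and 39 windows of lines 92, 150, 193 and 232. Of the gained windows with at least 10 cytosines in the epiHybrid, 24 of 130 were 0.1 or more above Col-wt in epiHybrid 92 (18.5%), 15 of 113 in epiHybrid 150 (13.3%), 16 of 105 in epiHybrid 193 (15.2%) and 39 of 191 in epiHybrid 232 (20.4%). Over all eligible windows the shares were 0.283, 0.269, 0.25 and 0.382% in the 4 epiHybrids. Both kinds of share use the Col-wt reading that picked the windows, and its part in the difference between them was not tested. Conversely, 311 windows were at least 0.1 above Col-wt in 1 or more epiHybrids (0.993% of eligible windows), and 229 of these were gained in no epiRIL.

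The epiHybrids allow a comparison in which the Col-wt level cancels, and which asks whether a gain in an epiRIL is seen in its own hybrid more than in the others. In windows gained in exactly 1 epiRIL, the matching epiHybrid was above the mean of the other 3 epiHybrids in 4 of 4 lines. It averaged 0.0743 in line 92, against 0.0422 in the others, 0.0389 in line 150, against 0.0254, 0.0353 in line 193, against 0.0265, and 0.0716 in line 232, against 0.0335. The difference was 0.0231 ± 0.0142 (SD, n = 4 lines), and the exact two-sided sign-flip permutation test gave p = 0.125, the smallest that 4 lines allow, which does not pass 0.05. The sizes were unequal. Without the 3 regions of most gained windows (the first over AT4G22410, RLP39 and AT3G24880) the mean difference was 0.0149, with 3 of 4 lines above 0 (exact p = 0.25), and that of line 150 was -0.00208, against 0.0135 with them. Of the 3 regions, RLP39 is the one gained in line 150. With 1 mean per region the mean difference was 0.0163, again above 0 in 3 of 4 lines (exact p = 0.25).

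**Figure D4:**
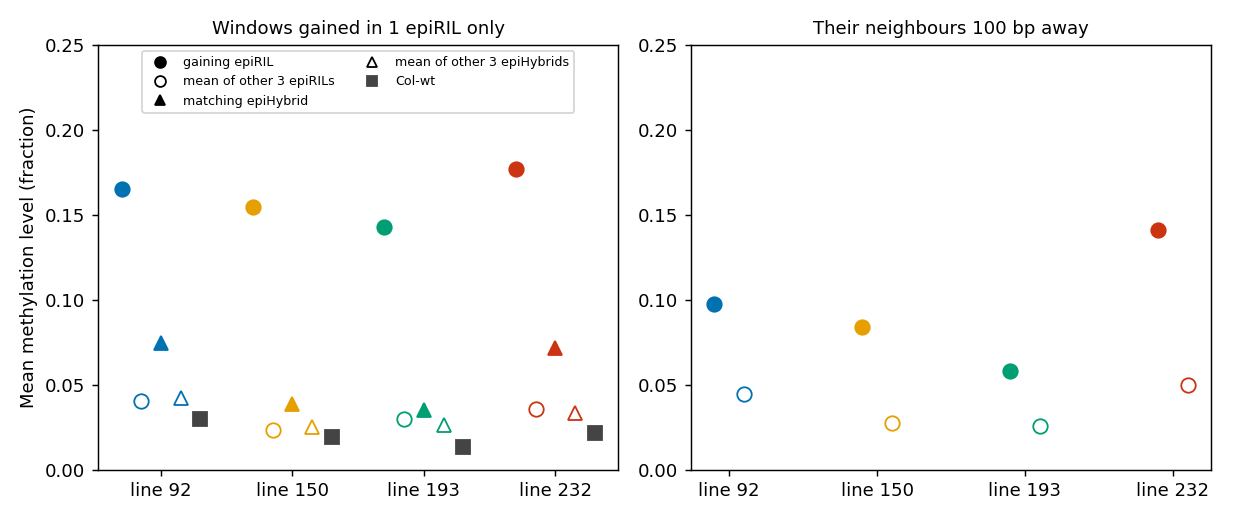
Left, mean methylation level (fraction) in windows gained in exactly 1 epiRIL, by line, in the gaining epiRIL, the other 3 epiRILs, the matching epiHybrid, the other 3 epiHybrids and Col-wt; right, the gaining epiRIL and the other 3 epiRILs in windows 100 bp to either side. The matching epiHybrid is above the other epiHybrids in 4 of 4 lines, by 0.00871 in line 193 to 0.0382 in line 232. Some of the windows at right were gained or overlapped a gained one, so the rule had a part in their levels.

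Windows next to the gained ones were compared as well. In windows 100 bp to either side, which share no base with the gained one, the gaining epiRIL was above the mean of the other 3 epiRILs in 4 of 4 lines, for windows gained in exactly 1 line. The level was 0.0972 in epiRIL 92, against 0.0443 in the other epiRILs, 0.0838 in epiRIL 150, against 0.0276, 0.0580 in epiRIL 193, against 0.0254, and 0.141 in epiRIL 232, against 0.0495. The difference was 0.0582 ± 0.0243 (SD, n = 4 lines), with an exact sign-flip p of 0.125, again the smallest possible. Bisulfite reads can span both windows, so neighbours are not fully separate measurements. Of the 124, 136, 104 and 210 neighbours in lines 92, 150, 193 and 232, only 83, 82, 76 and 93 shared no base with any gained window. The others were gained windows or overlapped one, so the rule had a part in their levels and in this p. No conclusion is drawn from it. In the 76 to 93 neighbours per line that shared no base with any gained window, the difference was 0.0270 ± 0.00695, above 0 in 4 of 4 lines (exact p = 0.125); this choice was made after the values were seen, and it leaves out the highest neighbours. Taking 1 mean per region, with all neighbours, it was 0.0371. Of the neighbours of all windows gained in a line, 26.9% were gained themselves for epiRIL 232, 14.9% for epiRIL 150, 10.2% for epiRIL 92 and 7.81% for epiRIL 193.

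Gained windows lay close to methylation that was present in Col-wt. Of the 411, 18.7% were within 200 bp of a window with a level of 0.2 or more in Col-wt and 50.4% within 1000 bp, against 4.64 and 24.4% of all eligible windows. Distances here run between window starts, so such windows can overlap, whereas the distance given for the RLP39 region ran between edges. Windows gained in 2 or more epiRILs were nearer than those gained in 1: 29.7 against 15.6% within 200 bp. By line, 36.8% of the windows gained in epiRIL 92 were within 200 bp, and 17.4, 17.8 and 15.5% of those gained in epiRILs 150, 193 and 232. Col-wt itself read 0.05 or more in 19.0% of the gained windows, against 6.21% of the eligible ones, and its median level was 0.0108, against 0.00588; the Col-wt level is part of the rule.

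The methylated windows nearest to gains had in each epiRIL a level close to that of Col-wt. For gained windows with a Col-wt methylated window within 1000 bp, the nearest such windows (32 to 52 per line) stood at 107.0% of Col-wt in epiRIL 92. The value was 89.1% for epiRIL 150, 102.0% for epiRIL 193 and 102.1% for epiRIL 232. Over all 2624 windows methylated in Col-wt, the epiRILs held 91.5, 66.2, 60.9 and 48.4%. The difference ran the same way in 4 of 4 lines and was widest in epiRIL 232, which had lost the most. Those nearest windows read 0.252 to 0.293 in Col-wt, under the mean of 0.340 over all methylated windows. This comparison was chosen after the values were seen and was not tested, and the 2 sets of windows differ in their Col-wt level. Nearest windows could also adjoin or overlap a gained window, so the rule, which picked high epiRIL levels, could have a part in theirs.

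**Figure D5:**
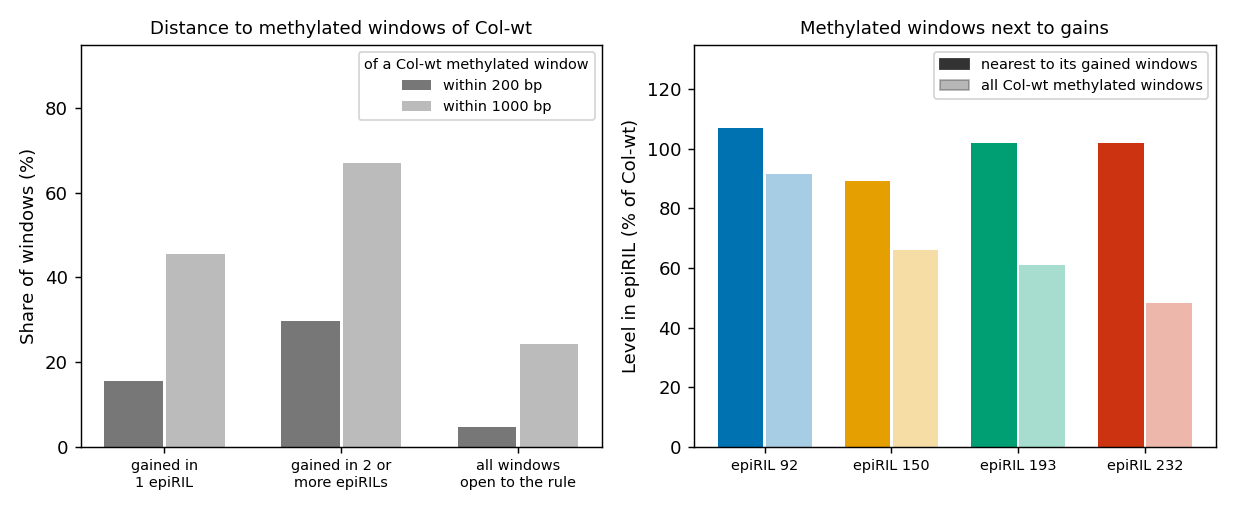
Left, share of windows (%) within 200 bp and 1000 bp of a window with a level of 0.2 or more in Col-wt, for windows gained in 1 epiRIL, in 2 or more, and for all eligible windows (written there as open to the rule); right, level in each epiRIL as % of Col-wt in the methylated windows nearest to its gained windows (dark) and in all 2624 methylated windows (light). The dark bars stand at 89.1 to 107.0% and the light bars at 48.4 to 91.5%. Distances run between window starts.

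The kind of gene set the gained windows apart less than their surroundings did. Protein-coding genes covered 74.5% of the 411 windows, pseudogenes 1.22%, other genes 2.19% and no gene 22.1%, against 71.5, 1.53, 3.18 and 23.8% of all eligible windows. Lines differed more: 38.3% of the windows gained in epiRIL 150 had no gene, and 16.0% of those gained in epiRIL 232. In all, 139 of 727 genes with an eligible window held a gained one, 131 of them protein-coding, and 32 held 3 or more. These shares were not tested, since neighbouring windows are not independent.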

How the data were processed

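Bisulfite sequencing libraries of 9 lines, 2 per line (18 in all), were measured. The authors deposited 1 table that gives each line a methylation level, a fraction, and a cytosine number for every window of 100 bp at a step of 50 bp; levels are missing exactly where that number is 0. TAIR10, Bowtie2, BS-Seeker2 and cutadapt appear, without versions, in the submitters' processing notes; details on how libraries, reads and contexts were joined are not given in the sources used here. The table gives no read numbers, so depth is unknown and levels carry no interval. Windows held a median of 31 to 34 cytosines in the epiRILs and epiHybrids and 29 in Col-wt.

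Members were found with Python 3.11.15 and pandas 2.3.3, and the steps were tested on simulated data with planted gains. The members, lists and tests were chosen with earlier results of these data known. Named regions were the 12 with the most gained windows, the 3 with the most per epiRIL, and those of 2 or more windows gained in 3 or 4 epiRILs (31 in all). The line was the unit, tested by exact sign-flip permutation over 4 lines. Genes were taken by position from a RefSeq table of assembly TAIR10.1, of which no coordinates are printed. As a check, gene cover correlated with cytosine number at 0.366 without a shift of the table, and at 0.320 and 0.318 with shifts of 250 bp. No genome sequence was used here, so no sequence is shown. Columns that the authors derived from these levels were not used.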

Additional observations from a re-analysis of the deposited data

Results flagged for a closer look

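In 36 screens of 4 values for 1 that stands far from the other 3, 4 groups were past the limit (a gap to the nearest value of over 0.829 of the range); chance flags about 1 in 20 groups. All were levels of the epiHybrids in a named region. EpiHybrid 150 stood apart over RLP39, at 0.120, with 0.0108 to 0.0198 in the other epiHybrids and 0.218 in epiRIL 150. EpiHybrid 232 stood apart over AT3G24880, at 0.159, with 0.0603 to 0.0708 in the others and 0.267 in epiRIL 232. Over AT3G25850 epiHybrid 232 stood apart at 0.0955, with 0.0465 to 0.0513 in the others, including epiHybrid 193, although epiRILs 193 and 232 had like levels there.

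In the second AT4G22410 region the epiHybrid that stood apart was that of line 193, at 0.0650, with 0.00892 to 0.0148 in the others. The gain there was in epiRIL 232, at 0.195, and epiRIL 193 read 0.0286. EpiHybrid 193 had a median of 18 cytosines per window in this region, the fewest of the 9 lines.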

How the results depend on the processing

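The number of gained windows followed the limits. With a gain of at least 0.2 it was 66, and 17, 12, 10 and 39 in epiRILs 92, 150, 193 and 232. Taking every second window, which by construction keeps about 1 in 2, it was 195, and 62, 54, 53 and 95. With at least 20 cytosines, epiRILs 150 and 193 had 70 and 58. With Col-wt and the gaining epiRIL each holding at least 80% of the most cytosines of any line, chosen after seeing the data, it was 228, and 76, 50 and 39 in epiRILs 92, 150 and 193. The mean position of the epiHybrids was 0.423 with a gain of at least 0.2 and 0.322 with Col-wt under 0.05; at the larger gain, lines 150 and 193 parted, at 0.613 and 0.239. EpiRIL minus Col-wt in the neighbours of gained windows, 0.0593 on average, was 0.122 with a gain of at least 0.2, 0.0344 with 1 mean per region and 0.0224 in neighbours that share no base with any gained window, a choice also made after seeing the data and one that by construction leaves out the highest neighbours. The cause of the other shifts was not tested. The matching epiHybrid exceeded the others by 0.0149 to 0.0651 over all alternatives, and by 0.0181 to 0.0279 with 1 line left out. It was below them in line 150 with 1 mean per region (-0.00185) and without the 3 regions of most gained windows (-0.00208); leaving out those regions was chosen after seeing the data. No paired analysis was possible because the deposited columns join the libraries of a line, which also kept single libraries from being left out. No p could pass 0.05 in any setting with 4 lines.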
